A study of Mus musculus with 8 samples.

Results

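The mitochondrial ribosomal protein genes were taken as every row whose gene name began with Mrpl or Mrps followed by a number, and 75 of the 22923 gene symbols in the deposited liver tables met that rule. By symbol, 46 encode proteins of the large subunit (Mrpl) and 29 proteins of the small subunit (Mrps). All 75 reached 1 RPKM (a read measure corrected for transcript length and sequencing depth) in at least 1 group, the filter that kept 10351 genes in all, and none was listed at 0 in any group. The rule uses names and not values.

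The mitochondrial ribosome (mitoribosome) translates the few proteins that mitochondrial DNA encodes, which are core subunits of the respiratory chain and of ATP synthase. Its RNAs come from mitochondrial DNA, while all its proteins are encoded in the nucleus, made in the cytosol and imported. Liver cells hold many mitochondria, and these genes have known regulators in common with the nuclear genes of the respiratory chain.

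Liver RNA was sequenced in a design of 2 genotypes by 2 diets in C57BL/6 mice. The KO groups were deficient in Xbp1 in the liver (genotype label Xbp1-/-), and the controls carried the floxed allele (genotype label Xbp1flox). The 4 groups were KO on the high-fat diet, KO on chow, flox on the high-fat diet and flox on chow. The high-fat diet included a high-fructose corn syrup equivalent, and both diets were given for 4 weeks. Each cohort of 4 mice was pooled into 2 replicate libraries, which makes 8 libraries, and the deposited tables give 1 RPKM value per gene for each group. Single libraries were not analysed here, so no difference below has a replicate check, an error or a p-value. The Cre driver, sex and age are not given in the sources used.

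Xbp1, the targeted gene, encodes a factor of the unfolded protein response and stood at 34.1 RPKM in KO high-fat livers and 44.2 RPKM in KO chow livers, against 90.7 RPKM in flox high-fat livers and 112 RPKM in flox chow livers. Of 8 hepatocyte markers, Alb (albumin) had a listed value of 0 in every group, so an exact 0 can be a failed estimate. The other hepatocyte markers summed to 10320 RPKM in KO high-fat and 12608 RPKM in KO chow livers, against 16684 RPKM in flox high-fat and 18580 RPKM in flox chow livers. The 6 cholangiocyte markers summed to 109 RPKM and 42.5 RPKM in KO high-fat and KO chow livers, against 23.1 RPKM and 21.8 RPKM in flox high-fat and flox chow livers. The 8 macrophage markers summed to 235 RPKM and 140 RPKM in KO high-fat and KO chow livers, against 181 RPKM and 146 RPKM in flox high-fat and flox chow livers. The 6 stellate cell markers summed to 149 RPKM and 119 RPKM in KO high-fat and KO chow livers, against 91.8 RPKM and 96.6 RPKM in flox high-fat and flox chow livers. Past 2-fold in KO against flox on the high-fat diet were 2 of 6 cholangiocyte and 1 of 6 stellate markers, all higher. Past 2-fold lower there were 2 of 8 hepatocyte and 1 of 3 adipose markers, and 0 of 8 macrophage markers were past 2-fold. Of all genes, 1.07% were past 2-fold higher there and 1.86% lower. On chow 0 markers of these 5 cell types were past 2-fold, against 0.252% of all genes higher and 1.37% lower. The 3 adipose markers summed to 0.200 RPKM and 0.295 RPKM in KO high-fat and KO chow livers, against 9.78 RPKM and 0.570 RPKM in flox high-fat and flox chow livers, so flox high-fat livers stood apart in them. The 1 blood marker found of 3 stood at 37.2 RPKM and 75.1 RPKM in KO high-fat and KO chow livers, against 60.3 RPKM and 62.9 RPKM in flox high-fat and flox chow livers. Of 4 exocrine pancreas markers 3 were listed at 0 in every group, and the other stood between 3.39 RPKM in KO high-fat and 12.2 RPKM in flox chow livers. The 6 endothelial markers lay closer together. They summed to 62.2 RPKM (KO high-fat), 60.6 RPKM (KO chow), 64.2 RPKM (flox high-fat) and 69.5 RPKM (flox chow). All genes summed to 367410 RPKM (KO high-fat), 461390 RPKM (KO chow), 461730 RPKM (flox high-fat) and 513690 RPKM (flox chow). The marker sums are deposited RPKM and were not set against these totals. The marker sums differed between groups, and their part in the results below was not tested. In bulk liver, fewer cells of a type and less RNA per cell cannot be told apart.

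The genes lie on 17 chromosomes, with 10 on chromosome 11 and 8 on chromosome 17. Promoter windows of 300 bases, from 250 bases before to 50 after the RefSeq start (GRCm38.p6), were found for 66 of the 75. The windows of 4 members are printed because the results turn on them. Mrps18c and Mrps24 had the largest diet differences in KO livers, Mrps36 stood apart on chow, and Mrpl52 had the highest RPKM of all members. Mrps18c lies at chr5:100798509-100798808, plus strand, and Mrps24 at chr11:5707652-5707951, minus strand. Mrps36 lies at chr13:100744610-100744909, minus strand, and Mrpl52 at chr14:54426659-54426958, plus strand. Each is given 5′ to 3′ on the strand of its gene, and capitals mark the motif matches defined below.
Mrps18c: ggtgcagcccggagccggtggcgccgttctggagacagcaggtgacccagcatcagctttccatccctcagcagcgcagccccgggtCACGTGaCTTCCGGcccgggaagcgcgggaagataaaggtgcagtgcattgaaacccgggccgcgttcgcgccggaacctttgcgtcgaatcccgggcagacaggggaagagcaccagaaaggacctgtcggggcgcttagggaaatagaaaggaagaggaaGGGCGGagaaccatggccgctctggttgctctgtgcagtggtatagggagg
Mrps24: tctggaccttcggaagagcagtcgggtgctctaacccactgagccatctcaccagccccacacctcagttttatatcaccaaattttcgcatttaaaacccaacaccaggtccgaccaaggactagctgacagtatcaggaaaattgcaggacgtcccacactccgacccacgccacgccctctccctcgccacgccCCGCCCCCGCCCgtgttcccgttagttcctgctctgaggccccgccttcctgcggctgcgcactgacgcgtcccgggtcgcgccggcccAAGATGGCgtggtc
Mrps36: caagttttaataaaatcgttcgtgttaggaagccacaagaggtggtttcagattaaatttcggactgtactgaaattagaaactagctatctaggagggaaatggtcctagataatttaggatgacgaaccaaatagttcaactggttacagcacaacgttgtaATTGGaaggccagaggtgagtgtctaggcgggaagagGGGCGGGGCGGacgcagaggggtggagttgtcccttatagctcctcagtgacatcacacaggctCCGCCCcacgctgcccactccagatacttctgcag
Mrpl52: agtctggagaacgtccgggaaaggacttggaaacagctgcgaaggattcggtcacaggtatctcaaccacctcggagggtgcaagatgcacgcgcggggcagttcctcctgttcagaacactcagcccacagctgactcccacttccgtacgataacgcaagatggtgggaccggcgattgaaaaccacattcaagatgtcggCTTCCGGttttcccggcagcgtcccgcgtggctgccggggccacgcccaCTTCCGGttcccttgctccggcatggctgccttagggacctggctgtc

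Motifs were searched on both strands, and any overlap between matches was allowed. NRF1 and GABP are factors known for driving nuclear genes of mitochondrial proteins. The NRF1 motif GCGCANGCG was found in 15 of 66 member promoters (22.7%) and in 14.3% of 7436 other promoters of genes past the filter. The GABP motif CCGGAAG was found in 22 member promoters (33.3%) and in 18.9% of the other promoters. The YY1 motif AAGATGGC was found in 12 member promoters (18.2%) and in 4.87% of the others. Over all 27025 promoters of that length, the shares were 6.47% for NRF1, 9.12% for GABP and 2.88% for YY1.

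For the other motifs the shares in the members were close to or below those of other genes. The SP1 motif GGGCGG was in 33 of 66 member promoters and in 64.8% of the others, and CCAAT was in 39.4% of member promoters and 39.3% of the others. The E-box CACGTG was in 7.58% of member promoters and 10.8% of the others. The XBP1 core TGACGTG was in 1 of the 66 member promoters (1.52%), that of Mrpl36, and in 2.73% of the others. Over all promoters the shares were 35.9% for SP1, 37.9% for CCAAT, 7.24% for the E-box and 1.99% for the XBP1 core. In the printed windows, Mrps18c held an E-box beside a GABP match, followed by an SP1 match, and Mrpl52 held GABP matches only. Mrps24 held adjacent SP1 matches and a YY1 match near the end of its window, and Mrps36 held a CCAAT box, overlapping SP1 matches and a further SP1 match. A match is a description of the letters and not a binding site. The 22 members with a GABP match had a median log2 change of -0.52 on the high-fat diet in KO livers, and the 44 without had -0.40. In flox livers the diet medians were -0.20 with the motif and -0.17 without it. For NRF1, YY1 and SP1 the medians in KO livers were all -0.44 with and without the motif.

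Many members share a start region with another gene. Of 74 members whose upstream neighbour on the other strand could be placed (GENCODE M21, GRCm38), 18 (24.3%) had a divergent start within 1000 base pairs, against 11.2% of 9141 other genes past the filter. The start of Mrps18c lay 29 base pairs from that of Helq, and the start of Mrpl51 lay 100 base pairs from that of Ncapd2.

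The members ranged from 1.64 RPKM to 268 RPKM, and the same genes stood at the top and the bottom in every group. Their median was 19.5 RPKM in KO high-fat livers and 26.1 RPKM in KO chow livers, against 23.6 RPKM in flox high-fat livers and 26.8 RPKM in flox chow livers. All genes past the filter had medians of 5.41 RPKM in KO high-fat and 5.86 RPKM in KO chow livers, against 6.05 RPKM in flox high-fat and 5.99 RPKM in flox chow livers. The members were thus set at several times the typical level of an expressed gene in all 4 groups.

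Mrpl52, a large-subunit protein without a bacterial counterpart, was the highest member in every group. It stood at 158 RPKM in KO high-fat and 239 RPKM in KO chow livers, against 168 RPKM in flox high-fat and 268 RPKM in flox chow livers. Both chow groups were above both high-fat groups. Mrpl12, whose protein is the stalk protein of the large subunit and is also known to bind the mitochondrial RNA polymerase, ranked next. It stood at 141 RPKM in KO high-fat and 181 RPKM in KO chow livers, against 155 RPKM in flox high-fat and 202 RPKM in flox chow livers. Mrps21, the counterpart of bacterial S21, was the highest small-subunit gene, at 112 RPKM in KO high-fat and 171 RPKM in KO chow livers, against 135 RPKM in flox high-fat and 176 RPKM in flox chow livers. In the deposited values all 3 of these genes had the same order of groups, with flox chow highest and KO high-fat lowest. Under median rescaling (described below), log2 changes of KO against flox on the high-fat diet were 0.086 (Mrpl52), 0.029 (Mrpl12) and -0.10 (Mrps21). Under sum rescaling they were 0.23, 0.17 and 0.040, so KO high-fat livers were not the lowest group there.

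At the low end, Mrpl19, the counterpart of bacterial L19, was the lowest member in every group. It stood at 1.64 RPKM in KO high-fat and 2.41 RPKM in KO chow livers, against 2.02 RPKM in flox high-fat and 2.11 RPKM in flox chow livers. The lowest small-subunit gene was Mrps25, at 3.05 RPKM in KO high-fat and 3.47 RPKM in KO chow livers, against 3.56 RPKM in flox high-fat and 3.62 RPKM in flox chow livers. Proteins of 1 complex thus came from transcripts that differed far more between genes than any member differed between groups. No member was past 2-fold in any comparison.

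Between these ends, the large-subunit genes Mrpl14, Mrpl42 and Mrpl34 followed Mrpl12 in mean RPKM over the groups, and the lowest after Mrpl19 were Mrpl17, Mrpl11 and Mrpl35. Among small-subunit genes Mrps24 ranked second to Mrps21 in KO chow and flox high-fat livers, and Mrps14 was the lowest after Mrps25. The 46 genes with a bacterial counterpart had a median of 22.3 RPKM in KO high-fat and 31.6 RPKM in KO chow livers, against 27.4 RPKM in flox high-fat and 30.3 RPKM in flox chow livers. The 26 mitochondrion-specific genes (3 members were not classed) had lower medians in every group, the lowest being 14.02 RPKM in KO high-fat livers and the highest 19.7 RPKM in flox chow livers. In the order of the members, Mrps36 moved most, by 19 places between groups, with ranks 44 and 46 of 75 in KO high-fat and KO chow livers, against ranks 33 and 27 in flox high-fat and flox chow livers. Mrpl33 and Mrpl51 followed, with 12 places between their highest and lowest ranks.

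**Figure D1:**
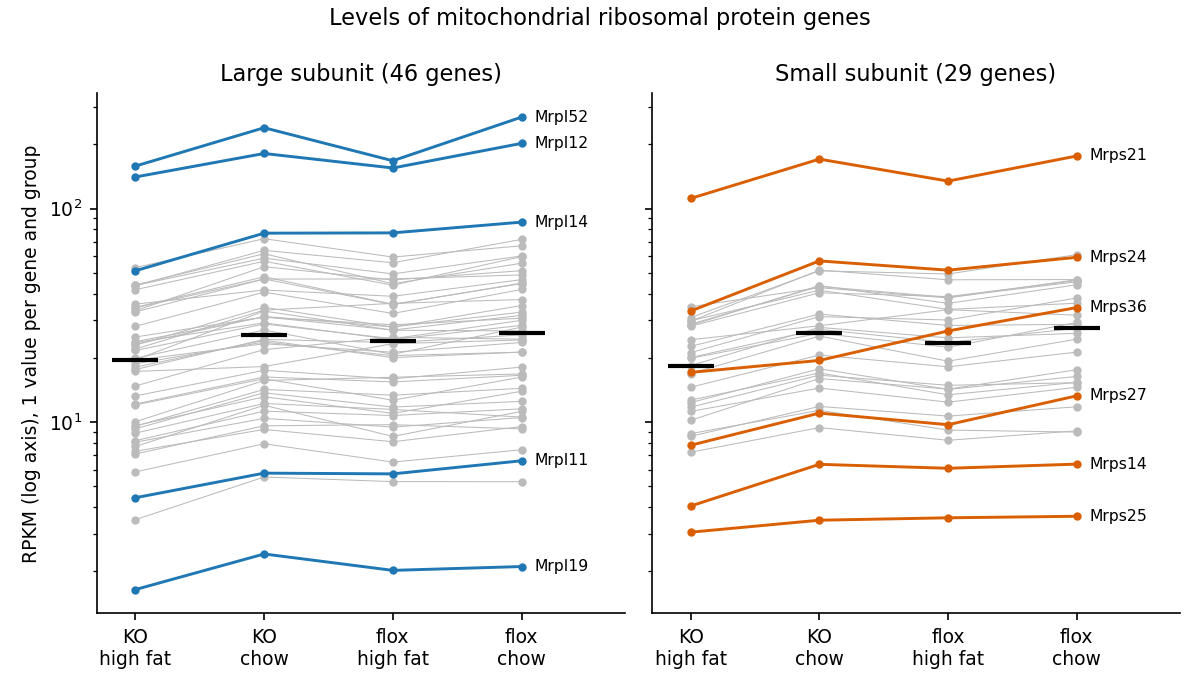
RPKM (log axis, 1 deposited value per gene and group) of the 46 large-subunit genes (left) and the 29 small-subunit genes (right) in the 4 groups, with lines joining the values of a gene, named genes in colour and black bars for the median of each panel. Mrpl52, Mrpl12 and Mrps21 lay above 100 RPKM in every group, and every line of deposited values was lowest in KO high-fat livers, as 53 and 27 were under the rescalings described below.

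All 75 members had their lowest deposited RPKM in KO high-fat livers, as had 52.0% of 10319 genes measured in all 4 groups. Under the rescalings described below, 53 and 27 members had, against 29.9% and 13.4% of those genes. The highest value was in flox chow livers for 45 members, in KO chow livers for 27 and in flox high-fat livers for 3. Summed over the members, the values came to 1849 RPKM in KO high-fat and 2611 RPKM in KO chow livers, against 2251 RPKM in flox high-fat and 2718 RPKM in flox chow livers. The RPKM of all genes also summed to the least in KO high-fat livers. As a share of that sum, the members took 0.503% in KO high-fat and 0.566% in KO chow livers, against 0.487% in flox high-fat and 0.529% in flox chow livers. On that measure flox high-fat livers, not KO high-fat livers, were lowest, and chow was above the high-fat diet in both genotypes. When the groups were centred on a median log2 ratio of 0 (median rescaling), 53 members were lowest in KO high-fat livers. When they were set to equal sums, leaving the 50 most abundant genes out of the sum (sum rescaling), 27 were. Paired values under the rescalings are given below in that order.

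Changes are given as log2((a + 1)/(b + 1)) of RPKM, a scale that shrinks differences of low genes. Each member was also set beside the median change of the 200 other genes nearest to it in mean level. The median of that difference over the members moved by at most 0.005 in any comparison under either rescaling. By construction a rescaling shifts members and neighbours alike. For the median of all genes, median rescaling gave 0.0056 in place of -0.13 for KO against flox on the high-fat diet, and 0.0090 in place of -0.11 for the diet in KO livers. Sum rescaling gave 0.12 and 0.13 in those comparisons. It gave 0.10 in place of -0.016 for KO against flox on chow, and 0.093 in place of -0.012 for the diet in flox livers. Shares of all genes that were lower, negative or past a threshold are given below for deposited values only. Counts of these kinds under the rescalings therefore have no share of all genes on the same scaling beside them.

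The diet was compared with chow within each genotype. In KO livers, all 75 members were lower on the high-fat diet than on chow, against 66.4% of 10328 genes as deposited. After median rescaling 74 members were, and after sum rescaling 69, where the medians of all genes were 0.0090 and 0.13. The median log2 change was -0.44 (-0.30 and -0.16 under the rescalings), a deposited level of 73.7% of chow, against -0.11 for all genes. The genes nearest in level had a median of -0.23, and the members differed from them by a median of -0.23, with 70 of 75 below their own neighbours. The large subunit had a median of -0.42 and the small subunit -0.47. Relative to their neighbours the medians were -0.21 for the large and -0.24 for the small subunit. Genes with a bacterial counterpart had a median change of -0.45 and mitochondrion-specific genes -0.42.

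Of the members, 10 of 75 were past 1.5-fold lower on the high-fat diet in KO livers, against 4.7% of all genes. None was past 1.5-fold higher, against 2.68% of all genes. None was past 2-fold in either direction, against 0.668% of genes higher and 0.794% lower. The 10 were Mrps18c, Mrps24, Mrpl33, Mrps16, Mrpl30, Mrps21, Mrps26, Mrps18b, Mrpl55 and Mrpl52, of which 6 belong to the small and 4 to the large subunit. After median rescaling there were 3, and after sum rescaling there were 0.

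The largest difference was that of Mrps18c, 1 of 3 paralogs of bacterial S18. It stood at 29.7 RPKM in KO high-fat and 51.5 RPKM in KO chow livers, against 46.4 RPKM in flox high-fat and 46.5 RPKM in flox chow livers. KO high-fat livers were low, and the other 3 groups lay close together. The log2 change on the high-fat diet was -0.78 in KO livers and -0.0033 in flox livers, and in KO livers it was -0.63 and -0.49 under the rescalings. Its paralog Mrps18b stood at 28.4 RPKM in KO high-fat and 43.6 RPKM in KO chow livers, against 36.0 RPKM in flox high-fat and 44.0 RPKM in flox chow livers. In that gene both high-fat groups were below both chow groups. The paralog Mrps18a, whose protein sits in the large subunit despite its name, stood at 29.8 RPKM in KO high-fat and 41.5 RPKM in KO chow livers, against 33.7 RPKM in flox high-fat and 36.1 RPKM in flox chow livers. The diet changes in KO livers were -0.60 for Mrps18b and -0.46 for Mrps18a, so all 3 paralogs were lower and only their sizes differed.

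Mrps24, the counterpart of bacterial S3, stood at 33.1 RPKM in KO high-fat and 56.9 RPKM in KO chow livers, against 51.5 RPKM in flox high-fat and 59.2 RPKM in flox chow livers. Its log2 change on the high-fat diet was -0.76 in KO livers and -0.20 in flox livers. Mrpl33, the counterpart of bacterial L33, stood at 19.6 RPKM in KO high-fat and 33.1 RPKM in KO chow livers, against 26.9 RPKM in flox high-fat and 26.8 RPKM in flox chow livers. Its KO chow value was the highest and its KO high-fat value the lowest, with both flox groups between them. Mrps16, the counterpart of bacterial S16, stood at 30.9 RPKM in KO high-fat and 51.1 RPKM in KO chow livers, against 49.4 RPKM in flox high-fat and 60.9 RPKM in flox chow livers. In the deposited values of Mrps16 and Mrps24, KO high-fat livers were lowest and flox chow livers highest. At the other end, Mrpl48, a mitochondrion-specific large-subunit protein, had a log2 change of -0.072, the smallest of the 75 as deposited, which turned to 0.068 and 0.21 under the rescalings.

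In flox livers the diet difference was smaller. There 68 of 75 members were lower on the high-fat diet than on chow, against 52.5% of 10322 genes, and 67 and 48 were under the rescalings. The median log2 change was -0.18 (-0.17 and -0.060 under the rescalings), a deposited level of 88.2% of chow, against -0.012 for all genes and -0.061 for the genes nearest in level. The members lay below their neighbours by a median log2 difference of -0.14, and 60 of 75 did so. The large subunit had a median of -0.17 and the small subunit -0.22.

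Of the members, 1 of 75 was past 1.5-fold lower in flox livers, against 1.68% of all genes, and 0 were past 1.5-fold higher, against 1.23%. None was past 2-fold, against 0.213% of genes higher and 0.426% lower. The 1 member was Mrpl52, the most abundant, with a log2 change of -0.68, which was -0.66 and -0.54 under the rescalings, so that under sum rescaling 0 members were past 1.5-fold. Next came Mrpl23, the counterpart of bacterial L23, at -0.44, and Mrps27, an RNA-binding protein of the small subunit, at -0.41. Mrpl23 stood at 43.8 RPKM in flox high-fat livers and 59.6 RPKM in flox chow livers, and Mrps27 at 9.73 RPKM in flox high-fat livers and 13.3 RPKM in flox chow livers. Only 7 members were higher on the high-fat diet, among them Mrpl21, at 11.5 RPKM in flox high-fat livers and 10.6 RPKM in flox chow livers, and Mrps28, at 33.6 RPKM in flox high-fat livers and 31.7 RPKM in flox chow livers.

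**Figure D2:**
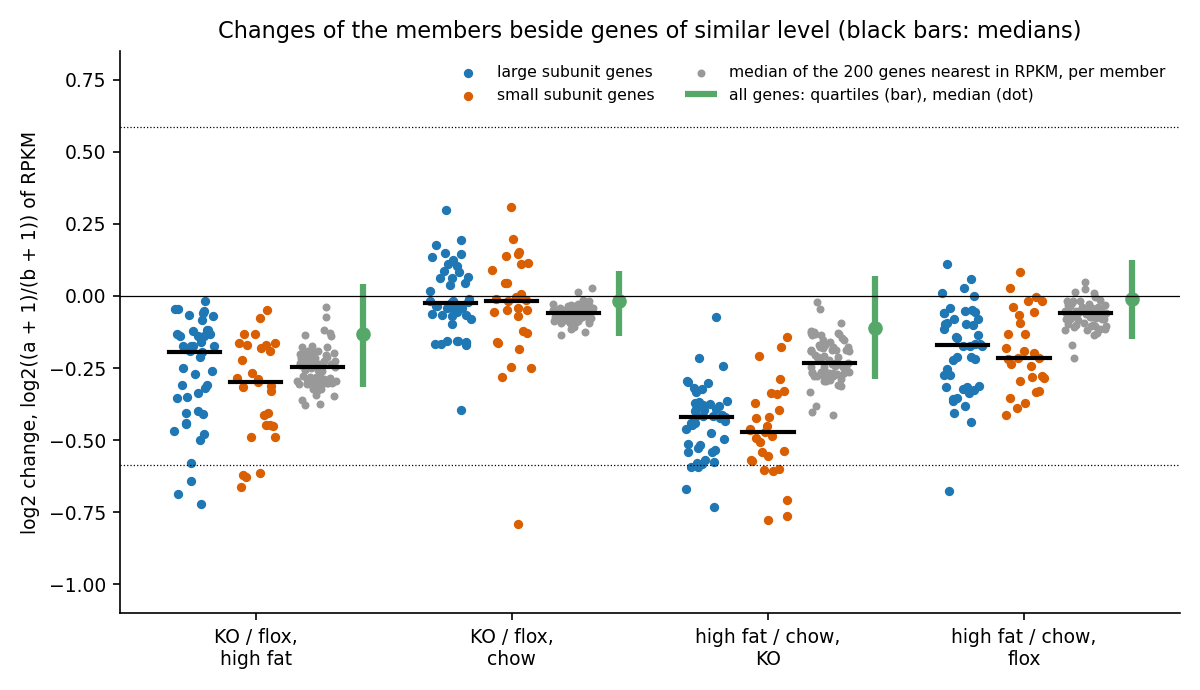
Log2 changes of the large-subunit genes (blue) and small-subunit genes (orange) in the 4 comparisons, with the median change of the 200 genes nearest in RPKM to each member (grey), all genes (green) and dotted lines at 1.5-fold. The diet changes of the members had lower medians than genes of similar level in both genotypes, -0.44 against -0.23 in KO and -0.18 against -0.061 in flox livers, while for KO against flox they were -0.26 against -0.25 on the high-fat diet and -0.024 against -0.060 on chow.

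The diet changes of single members in KO livers were little related to those in flox livers. Across the 75 members, the diet change in KO livers and that in flox livers had a Spearman rho of 0.098 and a Pearson r of 0.11, as a description across genes that share libraries within each comparison. The deposited change was more negative in KO livers for 70 of 75 members, against 67.9% of all genes. Under the rescalings it was so for 57 and 53 members. By definition these are the counts of negative interactions given further below. Mrpl52 had changes of -0.59 in KO and -0.68 in flox livers, near-equal in both. Mrpl33 had changes of -0.73 in KO and 0.0098 in flox livers. Mrps36 and Mrpl12 were among the 5 members whose deposited change was less negative in KO livers. The changes were -0.18 against -0.35 for Mrps36 and -0.36 against -0.38 for Mrpl12.

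**Figure D3:**
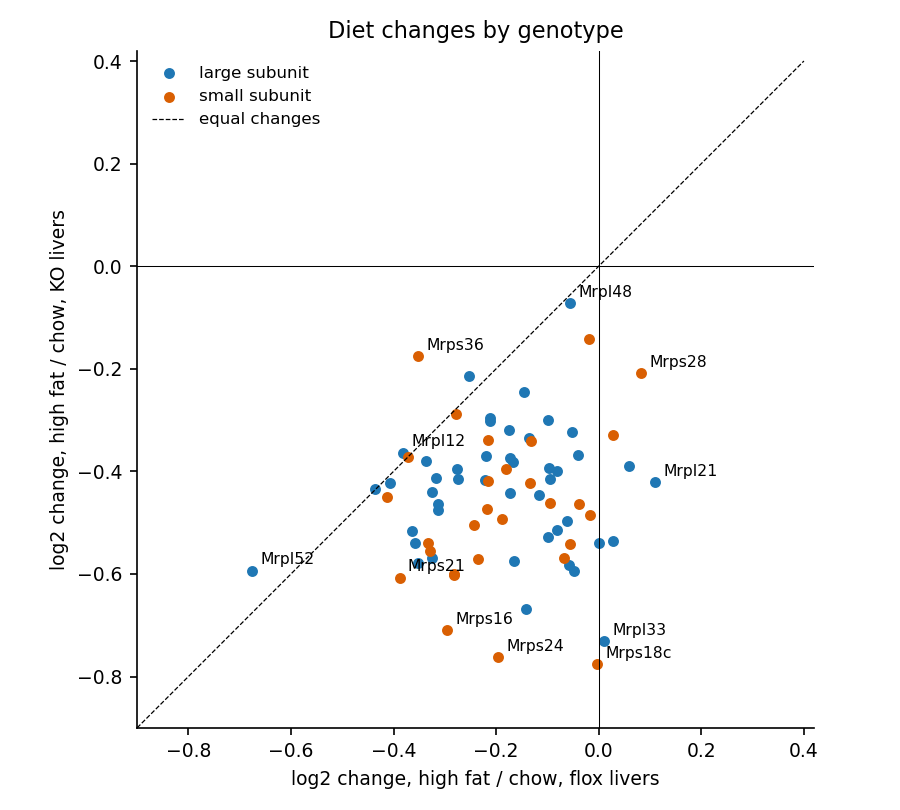
Log2 change on the high-fat diet against chow in flox livers (x axis) and in KO livers (y axis) for the 75 members, with the dashed line marking equal changes. 70 of 75 points lay below the line in the deposited values shown, as 57 and 53 did under the rescalings. Mrps18c and Mrpl33 were farthest below it, and Mrpl52 lay near it.

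The KO was compared with flox on each diet. On the high-fat diet, all 75 members were lower in KO than in flox livers, 54 after median and 35 after sum rescaling, against 70.1% of 10327 genes as deposited. There the median log2 change was -0.26, against -0.13 for all genes. Under the rescalings the median of the members was -0.097 and 0.039, so the direction turned under sum rescaling. The genes nearest in level had a median of -0.25, and the members differed from them by a median of -0.025, with 41 of 75 below their neighbours. On this diet the members were lower in KO livers about as far as other genes of their level were.

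The median was -0.19 for the large subunit and -0.30 for the small subunit. Relative to genes of similar level, it was 0.0090 for the large and -0.078 for the small subunit. Of the 29 small-subunit genes, 18 lay below their neighbours, and of the 46 large-subunit genes, 23 did. The interquartile ranges overlapped, from -0.39 to -0.13 for the large and from -0.45 to -0.17 for the small subunit. Genes with a bacterial counterpart (46 members) had a median of -0.28, and those specific to mitochondria (26 members) had -0.20.

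On the high-fat diet 7 of 75 members were past 1.5-fold lower in KO than in flox livers, against 8.33% of all genes. None was past 1.5-fold higher, against 3.2%. None was past 2-fold, against 1.07% of genes higher and 1.86% lower. The share of members past 1.5-fold (9.33%) was thus near that of all genes, and under either rescaling 0 members were past 1.5-fold. The 7 were Mrpl51, Mrpl18, Mrps16, Mrpl55, Mrps18c, Mrps24 and Mrps36, and Mrpl14 followed just short of 1.5-fold.

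Mrpl51, a mitochondrion-specific large-subunit protein, stood at 14.8 RPKM in KO high-fat and 21.9 RPKM in KO chow livers, against 24.98 RPKM in flox high-fat and 24.5 RPKM in flox chow livers. Its log2 change between KO and flox livers was -0.72 on the high-fat diet and -0.16 on chow. Mrpl18, the counterpart of bacterial L18, stood at 22.01 RPKM in KO high-fat and 33.5 RPKM in KO chow livers, against 36.0 RPKM in flox high-fat and 37.5 RPKM in flox chow livers. KO high-fat livers were low in both genes, and the other groups lay closer together. Mrpl14, the counterpart of bacterial L14, stood at 51.2 RPKM in KO high-fat and 76.8 RPKM in KO chow livers, against 77.01 RPKM in flox high-fat and 86.5 RPKM in flox chow livers. In the deposited values the smallest difference on the high-fat diet was that of Mrpl38, at 43.9 RPKM in KO and 44.5 RPKM in flox livers, and its change turned to 0.15 and 0.28 under the rescalings.

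On chow, KO and flox livers were close. There 47 of 75 members were lower in KO livers, against 54.2% of 10322 genes, and 36 and 16 were under the rescalings. The median log2 change was -0.024, against -0.016 for all genes, and it was 0.0081 and 0.12 under the rescalings, so its sign turned. The large subunit had a median of -0.025 and the small subunit -0.018. The members lay above genes of similar level by a median of 0.032, with 51 of 75 above.

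On chow 1 of 75 members was past 1.5-fold lower in KO livers, against 3.84% of all genes, and 0 were past 1.5-fold higher, against 1.09%. None was past 2-fold, against 0.252% of genes higher and 1.37% lower. The 1 member was Mrps36, first described in the small subunit and since known as an adaptor of the mitochondrial 2-oxoglutarate dehydrogenase complex. It stood at 17.1 RPKM in KO high-fat and 19.5 RPKM in KO chow livers, against 26.7 RPKM in flox high-fat and 34.4 RPKM in flox chow livers. Both KO groups lay below both flox groups, a pattern unlike that of Mrps18c. The log2 change was -0.79 on chow and -0.62 on the high-fat diet, and it stayed negative under the rescalings, at -0.76 and -0.65 on chow.

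The next most negative on chow was Mrpl48, with log2 changes of -0.39 on chow and -0.41 on the high-fat diet. Mrpl48 stood at 17.3 RPKM in KO high-fat and 18.2 RPKM in KO chow livers, against 23.3 RPKM in flox high-fat and 24.3 RPKM in flox chow livers. It too had both KO groups below both flox groups. The most positive on chow were the row that joins Mrps6 with Slc5a3, which overlap in the genome and cannot be separated here, at 0.31, and Mrpl33, at 0.30. Mrps34, a mitochondrion-specific small-subunit protein, had -0.28 on chow and -0.49 on the high-fat diet.

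**Figure D4:**
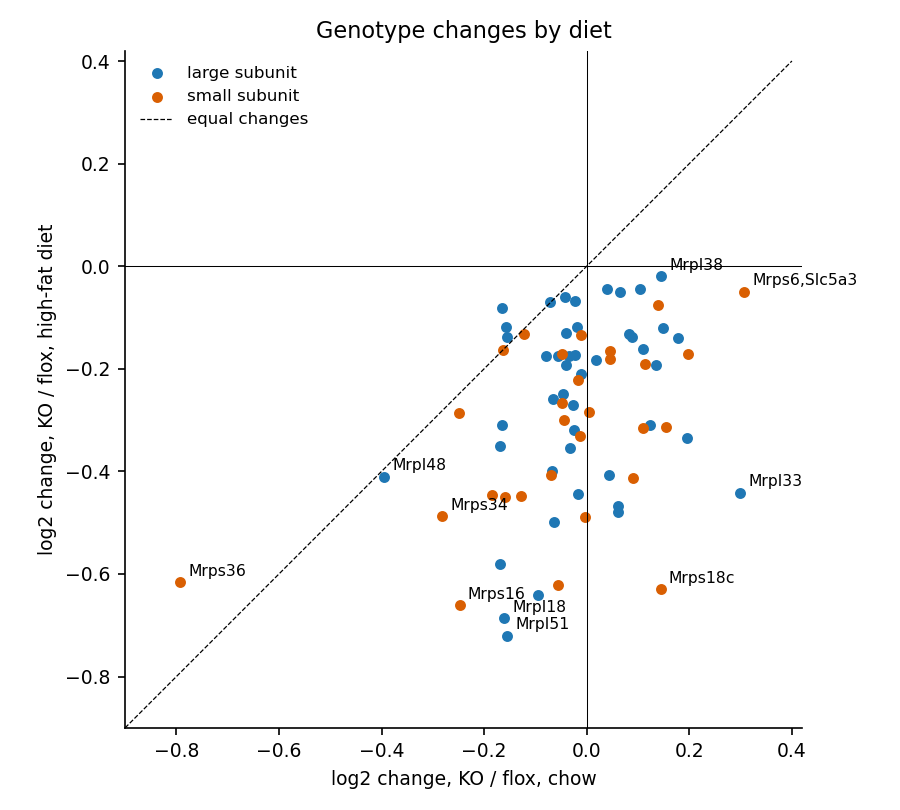
Log2 change of KO against flox on chow (x axis) and on the high-fat diet (y axis) for the 75 members, with the dashed line marking equal changes. Mrps36 stood alone at the left, with -0.79 on chow and -0.62 on the high-fat diet, and all 75 points lay below 0 on the y axis, 54 after median and 35 after sum rescaling.

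The genotype difference on the high-fat diet was set against that on chow by subtracting the log2 changes (high fat minus chow). The median of this interaction was -0.23, against -0.10 for all genes and -0.16 for genes of similar level, and the members differed from their neighbours by a median of -0.071. It was negative for 70 of 75 members, against 67.9% of 10319 genes, and for 57 and 53 under the rescalings. Past 1.5-fold there were 2 of 75 in the negative direction, against 3.03% of all genes, and 0 in the positive direction, against 2.32%. None was past 2-fold, against 0.659% of genes positive and 0.572% negative. The 2 were Mrps18c at -0.77 and Mrpl33 at -0.74, whose values in the 4 groups are given above. The positive deposited values were small except that of Mrps36, at 0.18. Under the rescalings Mrps36 was at 0.30 and 0.33, and Mrpl52 followed at 0.22 and 0.24.

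The members are short transcripts, and the diet changes of other genes moved with length. The members had a median transcript length of 1047 bases, against 2063 bases for 9140 other genes past the filter. Among the other genes, Spearman's rho between length and the diet change was 0.32 in KO and 0.37 in flox livers, across genes of the same libraries. The 1828 shortest of the other genes had median diet changes of -0.23 in KO and -0.095 in flox livers, and the 1828 longest had 0.033 in KO and 0.11 in flox livers. When neighbours were matched on both RPKM and length, the members still lay below them, with median differences of -0.20 in KO and -0.099 in flox livers. Among the members themselves, the 25 shortest had a median diet change of -0.46 in KO livers and the 25 longest -0.40, while in flox livers the 25 shortest had -0.17 and the 25 longest -0.19.

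Gene lists around the mitoribosome were compared by their counts and medians. The lists were not set beside genes of similar level. Among non-member genes, Spearman's rho between mean level and the diet change was -0.47 in KO and -0.27 in flox livers. For KO against flox on the high-fat diet it was -0.43. The nuclear subunits of oxidative phosphorylation are the partners of the proteins that the mitoribosome makes, and 76 were measured. Their median diet change was -0.61 in KO livers (-0.47 and -0.32 under the rescalings) and -0.22 in flox livers (-0.20 and -0.083). In KO livers 45 of 76 were past 1.5-fold lower with the diet, against 4.7% of all genes and 10 of the 75 members. Under the rescalings 20 and 8 of the 76 were, where 3 and 0 of the members were. Atp5l, a subunit of ATP synthase, stood at 171 RPKM in KO high-fat livers and 347 RPKM in KO chow livers, a log2 change of -1.02. For KO against flox, their median was -0.40 on the high-fat diet, -0.23 and -0.090 under the rescalings, and 0.010 on chow. On the high-fat diet 18 of 76 were past 1.5-fold lower, against 8.33% of all genes. Under the rescalings 5 and 3 of 76 were. Past 2-fold lower was 1 of 76, Ndufa9, on both diets, against 1.86% of all genes on the high-fat diet and 1.37% on chow. It stood at 24.9 RPKM in KO high-fat and 29.2 RPKM in KO chow livers, against 67.7 RPKM in flox high-fat and 71.2 RPKM in flox chow livers. Without matching on level, the oxidative phosphorylation subunits had larger median differences than the members with the diet in both genotypes. The same held for the KO on the high-fat diet, and the part of level in this was not tested.

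The 76 measured proteins of the cytosolic ribosome had median diet changes of -0.44 in KO and -0.33 in flox livers. In KO livers the median matched the -0.44 of the mitochondrial ribosome, and in flox livers it was more negative than the -0.18 of the members. These medians too were not matched on level. Under the rescalings the cytosolic medians were -0.30 and -0.15 in KO livers and -0.32 and -0.20 in flox livers. The flox median was then the more negative, so the order of the genotypes turned. For KO against flox on the high-fat diet the cytosolic median was -0.075, and it was 0.093 and 0.23 under the rescalings, so its sign turned. The 7 mitoribosomal proteins whose symbols fall outside the naming rule had medians of -0.45 with the diet in KO livers and -0.24 in flox livers, close to those of the members. One of them, Chchd1, a small-subunit protein, stood at 28.4 RPKM in KO high-fat and 42.1 RPKM in flox high-fat livers. The joined row of Mrpl53 and Ccdc142, also outside the rule, stood at 18.3 RPKM in KO high-fat and 29.2 RPKM in KO chow livers, against 28.5 RPKM in flox high-fat and 29.7 RPKM in flox chow livers.

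The factors that build and serve the mitoribosome had smaller median diet changes than the members, without matching on level and on a scale that shrinks differences of low genes. For the interaction the medians were -0.22 for assembly factors and -0.31 for translation factors, against -0.23 for the members. The 27 measured assembly factors, which process its RNAs and join its parts, had median diet changes of -0.30 in KO and -0.070 in flox livers. The 15 measured translation factors, which start, extend and end protein chains on it, had -0.27 in KO and -0.052 in flox livers. Under sum rescaling the KO values were -0.043 and -0.026, and the flox values turned to 0.035 and 0.050. Mpv17l2 was the 1 of 27 assembly factors past 1.5-fold lower with the diet in flox livers, against 1.68% of all genes. It stood at 13.4 RPKM in flox high-fat livers and 22.3 RPKM in flox chow livers. Under sum rescaling 0 of the 27 were past 1.5-fold lower there. Tsfm, an elongation factor, stood at 6.99 RPKM in KO high-fat livers and 10.6 RPKM in KO chow livers.

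The 9 measured genes of mitochondrial DNA transcription and replication had a median diet change of -0.23 in KO livers, and 0.021 after sum rescaling. Among them Tfam, which packages mitochondrial DNA, stood at 5.73 RPKM in KO high-fat and 7.03 RPKM in KO chow livers. In flox livers Tfam stood at 7.93 RPKM on the high-fat diet and 7.28 RPKM on chow. None of the 9 was past 1.5-fold in any comparison, against 4.7% of all genes lower with the diet in KO livers. The 13 measured mitochondrial chaperones and proteases had a median diet change of -0.34 in KO livers and -0.025 in flox livers, and the KO value was -0.050 after sum rescaling. Of these 13, 2 were past 1.5-fold lower with the diet in KO livers, against 4.7% of all genes. They were Hspe1, the co-chaperonin of the mitochondrial matrix, and Clpp, a matrix protease. Under either rescaling 0 of the 13 were. The 9 measured regulators of mitochondrial biogenesis had medians of -0.19 in KO and -0.039 in flox livers, which turned to 0.027 and 0.040 after sum rescaling. Gabpa, the DNA-binding subunit of GABP, stood at 7.22 RPKM in KO high-fat and 6.88 RPKM in KO chow livers. In flox livers it stood at 9.24 RPKM on the high-fat diet and 7.49 RPKM on chow. Gabpa was thus higher with the diet in both genotypes. Yy1 stood at 10.8 RPKM in KO high-fat and 13.6 RPKM in KO chow livers. In flox livers Yy1 stood at 15.1 RPKM on the high-fat diet and 13.0 RPKM on chow. For KO against flox on the high-fat diet, 6 of the 9 regulators were lower and 3 higher as deposited.

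**Figure D5:**
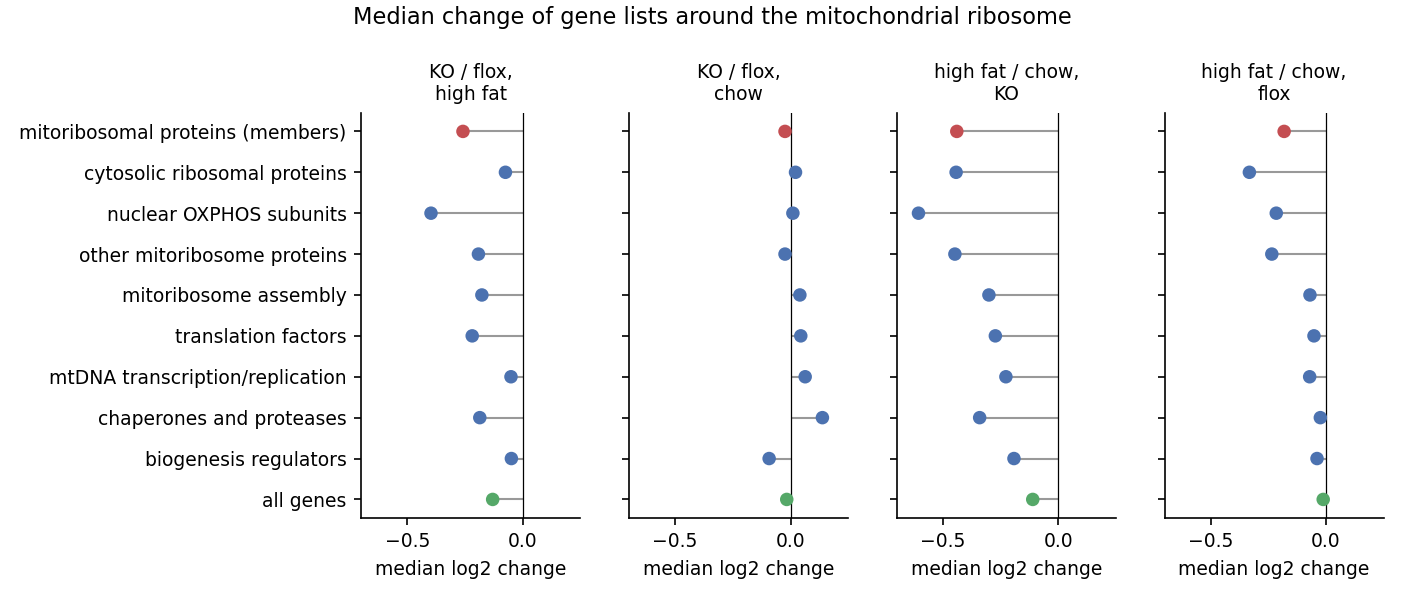
Median log2 change, not matched on level, of the members (red), of 8 gene lists around the mitoribosome (blue) and of all genes (green) in the 4 comparisons. With the diet in KO livers the nuclear oxidative phosphorylation subunits had the most negative median of those shown, -0.61, and the mitochondrial and cytosolic ribosomal proteins were both at -0.44.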

How the data were processed

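The deposited RPKM values, 1 per gene and group per the file headers, were used unchanged. The submitters' processing notes name TopHat2 2.0.7, Cuffdiff 2.1.1 and mm10 without saying what each was used for. The sources used here do not give the annotation, the scaling, or how the 2 libraries of a group became 1 value, and depth is unknown. Repeated symbols (158) were summed, comma-joined symbols stayed 1 entry, and a gene at 0 in a group entered no comparison with that group. A gene was kept when any group reached 1 RPKM. Changes were log2((a + 1)/(b + 1)), and genes were called past a threshold at 1.5-fold or 2-fold. Neighbours were the 200 other genes nearest in mean log2(RPKM + 1).

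Members named in the text, among those with at least 5 RPKM in a group compared, were the 4 large-subunit and 4 small-subunit genes with the largest positive and negative change in each comparison (3 and 3 for the interaction), the 5 highest and 5 lowest of each subunit, the Mrps18 paralogs and Mrpl12. Up to 3 genes per other list were taken by size of change. Mrps36 under rescaling, Mrpl38, Mrpl48 on the diet and the joined Mrpl53 row were singled out after their values were seen. The members, the gene lists and the motifs were chosen with earlier results of these data known.

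Lengths came from GENCODE M21 (GRCm38, the assembly that mm10 denotes) and promoters from RefSeq (GRCm38.p6). The median difference of members from their neighbours was tested on simulated data with known shifts, with a far smaller pseudocount than the one used above. Counts past a threshold, subunit differences, rescalings, lists and motifs were not tested in that way. Alternatives were other pseudocounts, filters, scalings, neighbour numbers and member sets. Calculations used Python 3.11.15, numpy 2.4.6, pandas 2.3.3 and matplotlib 3.10.9.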

Additional observations from a re-analysis of the deposited data

Results flagged for a closer look

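The difference between the subunits had opposite signs on the 2 diets. For KO against flox livers, the large-subunit median minus the small-subunit median was 0.106 on the high-fat diet and -0.007 on chow (log2). The chow value lay close to 0, and it turned to 0.006 without joined or repeated symbols and to 0.020 with Mrps18a and Mrps30 counted as large, so the opposite signs held only under some settings. The difference between diets was not tested.

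The distance of the members from genes of similar level also had opposite signs. For KO against flox livers, its median was -0.025 on the high-fat diet and 0.032 on chow, and this difference was not tested.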

How the results depend on the processing

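Of 250 values from 23 results under 14 settings, 230 kept their sign and moved by under 0.1 (log2) or, for counts, by under 1.5 times. That total includes values that could hardly move, such as counts of 0 past 2-fold and differences between gene sets under a common shift. Under median rescaling 17 of 23 values stayed the same in this sense, and under sum rescaling 15 of 23. Median rescaling gave member medians of -0.097 for KO against flox on the high-fat diet, 0.008 on chow (sign turned), -0.296 for the diet in KO livers and -0.107 for the interaction. It left 0 members past 1.5-fold for KO against flox on the high-fat diet and 3 for the diet in KO livers. Sum rescaling gave 0.039 and 0.116 for KO against flox on the high-fat diet and on chow (signs turned), -0.157 and -0.060 for the diet in KO and flox livers, and -0.086 for the interaction. It left 0 members past 1.5-fold in KO against flox on the high-fat diet and in both diet comparisons. By construction both rescalings shift every gene of a group alike.

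A pseudocount of 0.1 gave 17 members past 1.5-fold for the diet in KO livers. A pseudocount of 5 gave 6 there and 3 for KO against flox on the high-fat diet. The large minus small difference on chow turned to 0.006 without joined or repeated symbols and to 0.020 with Mrps18a and Mrps30 counted as large. Without Mrps36, an alternative added after the data were seen, 0 members were past 1.5-fold on chow. Zeros kept at 0 and neighbours matched on length were also added then. The distances from genes of similar level kept their sign in all comparisons and settings run.

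No paired analysis was possible because each group has 1 deposited value per gene. For the same reason no replicate was left out and no spread is given. With depth unknown, counting error cannot be set beside the lowest members.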
